A study of Mus musculus with 9 samples.

Results

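Ctcfl and Nxf2, both known as genes of the male germ line, were compared with the broadly expressed genes of their families and cofactors in Max knockdown embryonic stem (ES) cells, in primordial germ cells (PGCs) and in control ES cells. The set holds 7 of the 32450 genes or identifiers on the array: Ctcfl and its paralog Ctcf, the mRNA export receptor genes Nxf2, Nxf1 and Nxf7, and the export cofactor genes Nxt1 and Nxt2. Ctcfl and Nxf2 were chosen because they were among the genes with the largest rise in the knockdown, so their differences between groups are given below as a description with no test. The other 5 genes were chosen by gene family. Each gene had 1 probe, found through the RefSeq accession in the array file.

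Total RNA was measured on 9 Agilent arrays in 1 colour, with 3 arrays in each group, and the study's design states that the replicates were biological. The Max knockdown group came from the male mouse ES cell line VV3 of 129SV background, which carries a Venus reporter under the promoter of Vasa (Ddx4), transfected with siRNA against Max and sorted 3 days later for live single cells positive for Venus. The PGCs were sorted as GFP-positive live single cells from genital ridges of male E13.5 embryos, from crosses of MCH with C57BL6/J mice carrying the germ cell reporter transgene Oct4ΔPE-GFP. The control ES cells were the same VV3 line transfected with the non-silencing siRNA AllStars and sorted 3 days later as live single cells, with no Venus gate in the labels. All ES cell arrays therefore share 1 line, and knockdown and gate cannot be told apart in the comparison with control cells.

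CTCF is a zinc finger protein that binds DNA in most cells, stops the loops extruded by cohesin and insulates neighbouring domains. CTCFL (BORIS) has nearly the same zinc fingers but different ends, and in the mouse it is known from the testis, where it appears around the entry into meiosis. NXF1, paired with the small protein NXT1, is the main receptor that carries mRNA through the nuclear pore. NXF2 is a germ line relative of NXF1, NXF7 is a relative known from the cytoplasm of mouse neurons, and NXT2 is the second small partner of the family. MAX pairs with MYC, and also with MGA in the repressive complex PRC1.6, which is known to keep germ line genes silent in mouse ES cells. Dimers that contain MAX bind the E-box CACGTG.

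Promoter windows from RefSeq (GRCm38.p6), which run from 250 bases before to 50 bases after an annotated start, were found for 6 of the 7 genes, and Ctcfl had no entry in the table. They were searched on both strands for CACGTG, which reads the same on both, and for TCCCGC, the core of E2F sites. The sequences below are shown because the Nxf2 window held 5 E-boxes, because Tdrd9 had the pattern over the 9 arrays most like that of Nxf2, and because Nxf1 is the broadly expressed receptor of the family. Each runs 5′ to 3′ along the gene's strand in GRCm38.p6, and capitals mark CACGTG.
Nxf2, chrX:134964705-134965004, minus strand: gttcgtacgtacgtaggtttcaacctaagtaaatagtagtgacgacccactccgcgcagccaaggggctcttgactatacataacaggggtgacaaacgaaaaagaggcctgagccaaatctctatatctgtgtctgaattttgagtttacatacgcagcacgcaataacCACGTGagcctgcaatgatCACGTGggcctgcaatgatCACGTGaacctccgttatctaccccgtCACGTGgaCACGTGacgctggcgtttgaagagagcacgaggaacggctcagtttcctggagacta
Tdrd9, chr12:111971309-111971608, plus strand: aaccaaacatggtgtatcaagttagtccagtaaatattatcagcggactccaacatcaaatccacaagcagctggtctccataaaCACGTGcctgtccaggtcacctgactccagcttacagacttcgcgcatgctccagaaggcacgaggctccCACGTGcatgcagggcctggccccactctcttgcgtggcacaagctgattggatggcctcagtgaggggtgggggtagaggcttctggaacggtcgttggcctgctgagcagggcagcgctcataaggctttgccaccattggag
Nxf1, chr19:8756853-8757152, plus strand: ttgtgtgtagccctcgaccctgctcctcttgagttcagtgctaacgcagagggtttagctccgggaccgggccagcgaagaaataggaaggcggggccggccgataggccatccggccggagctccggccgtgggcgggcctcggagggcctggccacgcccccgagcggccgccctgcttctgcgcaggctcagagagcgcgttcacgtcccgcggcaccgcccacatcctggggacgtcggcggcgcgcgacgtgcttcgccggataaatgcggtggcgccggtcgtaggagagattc

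The 5 E-boxes of Nxf2 began at -80, -61, -42, -15 and -7 relative to the annotated start. The spacing between their first bases was 19, 19, 27 and 8 bases. At least 1 CACGTG was found in 7.15% of the 32851 windows of the table and at least 2 in 0.594%, whereas at least 5 were found in 5 windows (0.0152%), which belonged to 3 genes (Nxf2, Mfsd1 and Gm40008). The second annotated start of Nxf2 had none in its window, and neither had any window of Ctcf, Nxf1, Nxf7, Nxt1 or Nxt2. TCCCGC, present in 20.0% of all windows, was found in at least 1 window of Nxf2, Ctcf, Nxf1, Nxt1 and Nxt2 and in none of Nxf7. Nxf7 also had the windows poorest in CpG, with an observed to expected ratio of 0.11 and 0.107, against 1.07 in the first window of Nxf2 and 1.05 in that of Nxf1. These matches describe letters in a window, and no binding was measured here.

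**Figure D1:**
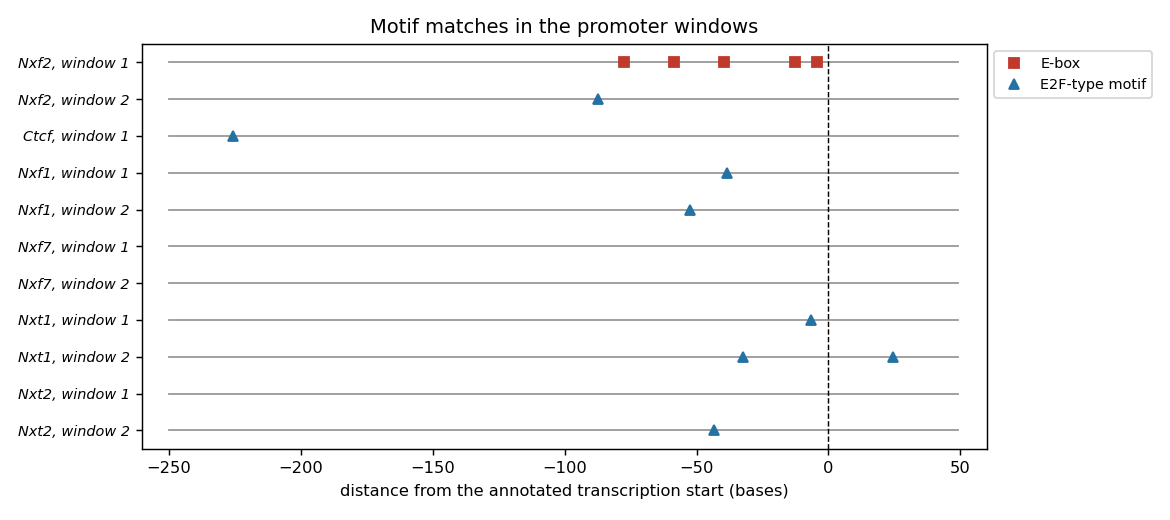
Matches of CACGTG (E-box, squares) and TCCCGC (E2F-type motif, triangles) along the RefSeq promoter windows of the 6 genes that have one, 1 line per window, with the distance from the annotated start in bases on the horizontal axis and the start at the dashed line. The 5 squares in window 1 of Nxf2 are the only E-boxes drawn.

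Levels are given as log2 of the processed signal relative to the 75th percentile of the same array, so 0 is a probe as bright as that percentile, and levels of different probes are not set against each other. Testing was limited to genes that some group measured well above background on each of its arrays, namely 20443 genes and 6 of the 7 described here. Differences come from 1 limma fit of the 3 groups, with Benjamini-Hochberg adjustment over all genes tested and a threshold of 0.05. The share of spots well above background ran from 58.2% to 67.6% per array, with no saturated spots. Max itself was lower in Max knockdown ES cells, at 0.59, 0.83 and 1.13, against 2.84, 2.74 and 2.85 in control ES cells (log2 difference -1.96, SE 0.14, adjusted p = 2.9e-05). Ddx4, the gene behind the gate, stood at 2.92 ± 0.17 in the knockdown, 3.996 ± 0.168 in PGCs and 0.28 ± 0.16 in control cells (SD, n = 3 each), and the pluripotency gene Pou5f1 at 4.71 ± 0.13, 4.56 ± 0.20 and 4.67 ± 0.06 in the same order.

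The labelled cell types were set against marker lists. Of 7 pluripotency markers, 2 were higher (Klf4 by 0.92, Sox2 by 0.57) and 1 lower (Nanog, -0.97) in the knockdown than in control cells, and 2 were higher (Nanog by 1.91, Zfp42 by 0.88) and 4 lower (Tbx3, Klf4, Esrrb and Sox2, -8.66 to -1.07) in PGCs than in control cells. Of all genes, 18.2% were higher and 21.9% lower in the knockdown, and 43.2% were higher and 32.4% lower in PGCs. Counts of so few markers say little beside these shares. With normexp and with spike-in scaling none of the 7 passed in the knockdown, where Nanog was 0.79 with normexp, and in PGCs 1 and 0 were higher with 4 lower in each. Of 11 germ cell markers, all were well above background on every PGC array, 10 on every knockdown array and 10 on every control array, and their mean log2 level ranged over 2.95 to 3.08 in PGCs, -0.22 to 0.17 in the knockdown and -1.46 to -0.93 in control cells. Against control cells, 4 of the 11 were higher, 0 lower and 7 did not pass in the knockdown (median 0.31). That list includes Ddx4, the gene behind the gate. In PGCs 9 were higher, 1 was lower (Tfap2c, -1.90) and 1 did not pass. Markers of gonadal somatic cells, which surround PGCs in the genital ridge, were also measured. Of 12, 11 were above background on every PGC array, 8 on every knockdown array and 10 on every control array. Their mean log2 level was -1.13, -0.82 and -1.62 on PGC arrays 1, 2 and 3. It was -3.03 to -2.72 on knockdown arrays and -2.59 to -2.56 on control arrays. The summed linear level of these markers was 18.4 to 24.2 times the 75th percentile on PGC arrays, 14.9 to 16.6 times on knockdown arrays and 17.4 to 17.5 times on control arrays. Against control cells, 6 of the 12 were higher in PGCs, 2 were lower (Fst, log2 difference -1.15, and Wt1, -0.996) and 4 did not pass. Of all genes, 43.2% were higher and 32.4% lower. Amh and Hsd3b1, both of gonadal supporting or steroid-making cells, were above background on all PGC arrays and on no control array (at least 7.42-fold and at least 56.8-fold higher in PGCs). These 2 entered the test only through the PGC arrays. Of 10 fibroblast markers, 5 were above background on every knockdown array, 4 on every PGC array and 7 on every control array, and of 11 markers of blood and endothelium 7, 5 and 7 were. The part of these cells in the PGC results below was not tested, and in such bulk samples fewer cells of a type and less RNA per cell cannot be told apart.

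Ctcfl, the germ line relative of Ctcf, was high in Max knockdown ES cells alone among the 3 groups. Its level was 2.002, 2.003 and 2.28 on the knockdown arrays, -4.68, -5.48 and -4.38 on the PGC arrays, and -4.03, -4.22 and -3.16 on the control arrays. Every knockdown array lay far above every other array, while PGCs lay just below control cells with no overlap, and the second PGC array was not above background. The difference of knockdown and control, which chose the gene, was 5.90 on the log2 scale (59.7-fold), the third largest rise of 14444 genes tested with a symbol. It was 6.13 on the slide that held 2 arrays of each group and 5.44 on the slide that held 1 of each, and 4.53 with normexp background correction.

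In PGCs, Ctcfl did not take on the level of the knockdown. PGCs lay below Max knockdown ES cells by a log2 difference of -6.94, given with no test because the gene was chosen for its high level on those knockdown arrays. They also lay below control ES cells by a log2 difference of -1.04, which was -0.20 with normexp. Without control replicate 3 it was -0.72, and without PGC replicate 2 it was -0.72. This difference is given with no test too, because the control arrays also entered the choice of the gene.

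Ctcf, the broadly expressed insulator gene, did not pass the test between Max knockdown and control ES cells. Its level was 2.29, 2.08 and 2.07 on the knockdown arrays, 1.08, 1.15 and 1.05 on the PGC arrays, and 2.23, 2.18 and 2.12 on the control arrays. Knockdown and control overlapped, and PGCs lay below both. The knockdown difference was -0.03 (95% confidence interval -0.23 to 0.18, adjusted p = 0.84), and a change within that interval would not have been seen. PGCs were lower than control cells (log2 difference -1.08, SE 0.09, adjusted p = 6.2e-06) and lower than the knockdown (log2 difference -1.06, SE 0.09, adjusted p = 7.6e-06).

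Nxf2, the germ line export receptor, was high in both Max knockdown ES cells and PGCs. Its level was 3.30, 3.04 and 3.23 on the knockdown arrays, 2.21, 0.72 and 2.26 on the PGC arrays, and -3.32, -3.35 and -3.00 on the control arrays. The groups did not overlap: the knockdown was highest, control cells were lowest, and the second PGC array stood apart from the other PGC arrays. That array also had the highest mean level of the gonadal somatic markers (-0.82). It had the lowest share of spots well above background (58.2%) and the lowest log2 75th percentile (9.39) of the 9 arrays too. Ddx4 stood at 4.06, 3.81 and 4.12 on PGC arrays 1, 2 and 3. Whether any of these bears on its Nxf2 level was not tested. The difference of knockdown and control, which chose the gene, was 6.41 (85.2-fold), the largest rise of the 14444 genes. It was 6.51 and 6.23 within the slides, and 5.25 with normexp.

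PGCs exceeded control ES cells in Nxf2 by 4.95 on the log2 scale (31.0-fold, higher on 3 of 3 arrays than on any control array). This difference is given with no test because the control arrays also entered the choice of the gene. PGCs lay below the knockdown by a log2 difference of -1.46, which was -1.11 with normexp and -0.96 without PGC replicate 2. It is given with no test because Nxf2 was chosen as the largest rise on those knockdown arrays.

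**Figure D2:**
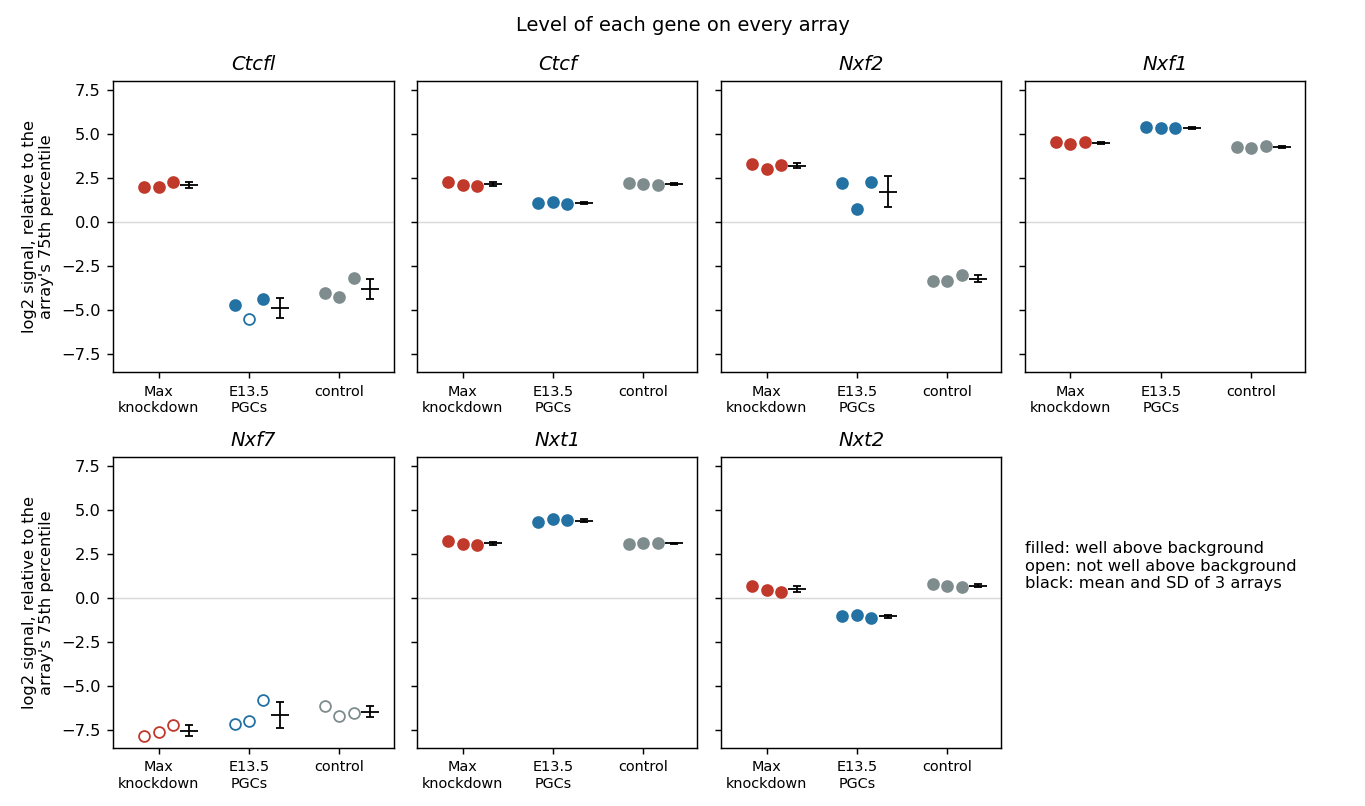
Level of each gene on every array, as log2 signal relative to the 75th percentile of the array (vertical axis), with Max knockdown ES cells, E13.5 PGCs and control ES cells from left to right. Filled points are well above background, open points are not, and black marks give the mean and SD of 3 arrays. Ctcfl is high in the knockdown alone, Nxf2 in the knockdown and in PGCs, and all points of Nxf7 are open.

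Nxf1, the general mRNA export receptor, was higher in PGCs than in both ES cell groups. Its level was 4.52, 4.45 and 4.52 on the knockdown arrays, 5.41, 5.32 and 5.34 on the PGC arrays, and 4.25, 4.21 and 4.33 on the control arrays, with no overlap between any groups. The knockdown difference was 0.23 (SE 0.08, 95% confidence interval 0.06 to 0.41, adjusted p = 0.038), and it did not pass the test in 12 of the 22 alternatives, including the fit with replicate number as a block (adjusted p = 0.138) and the fits without control replicate 1 or 2, knockdown replicate 1, 2 or 4, or PGC replicate 3 (adjusted p = 0.059 to 0.13), and had the opposite sign with normexp (-0.12). PGCs were higher than control cells by 1.09 (SE 0.08, adjusted p = 2.3e-06) and than the knockdown by 0.86 (SE 0.08, adjusted p = 1.1e-05). With scaling on spike-in transcripts these became 0.14 (adjusted p = 0.86) and -0.11 (adjusted p = 0.89), as described below.

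Nxf7, the third receptor gene, failed to clear the background on each of the 9 arrays. Its measured signal ranged over -7.81 to -7.20 in the knockdown, -7.16 to -5.80 in PGCs and -6.69 to -6.13 in control cells, where each value only bounds the level. It was not tested, and no fold is given.

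Nxt1, the main small partner of NXF1, was also higher in PGCs. Its level was 3.20, 3.07 and 3.02 on the knockdown arrays, 4.29, 4.46 and 4.40 on the PGC arrays, and 3.06, 3.09 and 3.13 on the control arrays. Knockdown and control overlapped (difference -0.00022, 95% confidence interval -0.20 to 0.19, adjusted p = 0.999), and PGCs lay above both. PGCs were higher than control cells by 1.29 (SE 0.09, adjusted p = 1.7e-06) and than the knockdown by 1.29 (SE 0.09, adjusted p = 1.8e-06), and the values with spike-in scaling were 0.33 (adjusted p = 0.64) and 0.32 (adjusted p = 0.66).

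Nxt2, the second small partner, ran the other way. Its level was 0.66, 0.47 and 0.32 on the knockdown arrays, -1.02, -0.98 and -1.13 on the PGC arrays, and 0.78, 0.69 and 0.59 on the control arrays. Knockdown and control overlapped, and every PGC array lay below both. The knockdown difference was -0.21 (95% confidence interval -0.45 to 0.04, adjusted p = 0.16), and PGCs were lower than control cells (log2 difference -1.73, SE 0.11, adjusted p = 1.1e-06) and lower than the knockdown (log2 difference -1.53, SE 0.11, adjusted p = 2.6e-06).

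**Figure D3:**
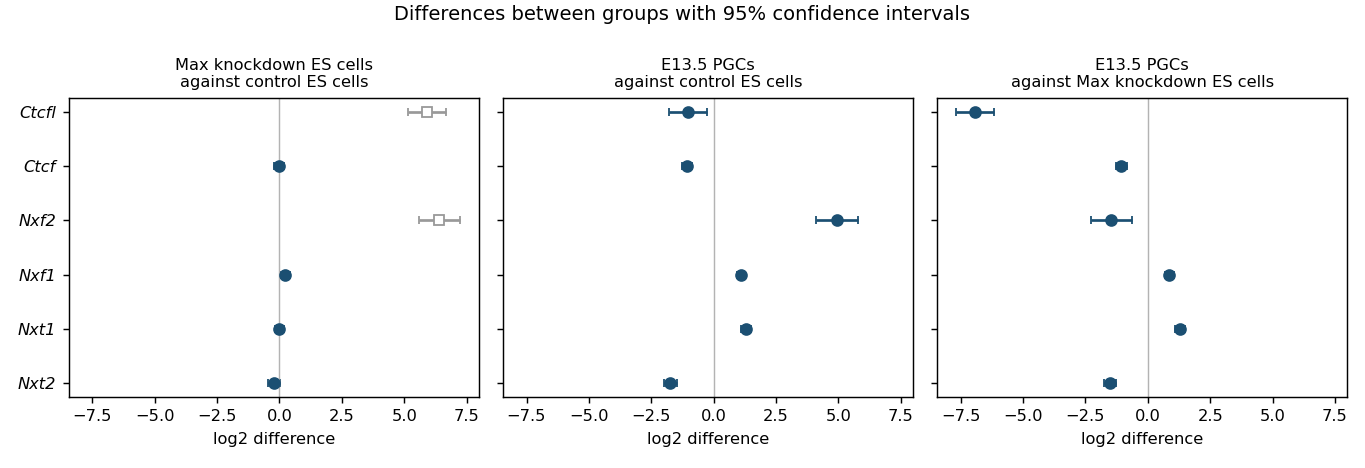
Log2 difference (horizontal axis) of the 6 genes that passed the background filter, with 95% confidence intervals of the limma fit, in the 3 comparisons named above the panels. Open squares mark Ctcfl and Nxf2 in the comparison that chose them. Their points in the PGC panels are filled but share arrays with that comparison, and all values of Ctcfl and Nxf2 are a description with no test. In the PGC panels Nxf1 and Nxt1 lie above 0 and Ctcf and Nxt2 below it.

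Of the 5 genes chosen by family, 4 were tested, and Nxf7 was not. Between Max knockdown and control ES cells, 1 of these 4 (Nxf1) passed the test, where 40.1% of all genes tested did (18.2% higher, 21.9% lower). In PGCs against control ES cells, all 4 passed (Nxf1 and Nxt1 higher, Ctcf and Nxt2 lower), where 75.6% of all genes tested did (43.2% higher, 32.4% lower). In PGCs against the knockdown, all 4 passed in the same directions, where 76.3% of all genes tested did (44.9% higher, 31.4% lower). Counts of 4 genes say little about the set beside these shares. The PGC comparisons share arrays with each other and with the comparison that chose Ctcfl and Nxf2.

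The directions in PGCs depend on what the arrays are scaled to. The median of all genes tested was -0.07 for knockdown against control, 0.18 for PGCs against control and 0.21 for PGCs against the knockdown, and scaling on the spike-in transcripts moved these medians to -0.05, -0.78 and -0.75. In PGCs against control cells, 8837 genes were higher and 6614 lower with the 75th percentile, against 1158 higher and 7464 lower with spike-ins. In PGCs against the knockdown, 9170 were higher and 6423 lower, against 999 and 7256 with spike-ins. In the knockdown against control cells, 3720 were higher and 4485 lower, against 713 and 288 with spike-ins and 563 and 319 with normexp. Relative to the median of all genes, Nxf1 and Nxt1 lay 0.92 and 1.11 higher in PGCs than in control cells and Ctcf and Nxt2 lay at -1.26 and -1.91, the same with either scaling because spike-in scaling shifts all genes of an array alike.

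A list of 31 genes of the mRNA export machinery was mostly higher in PGCs. It held genes of the TREX and TREX-2 complexes and the nuclear pore, and also the export receptor genes Nxf3 and Xpo1. Against control cells 24 rose and 3 fell in PGCs, with a median of 0.69 beside 0.18 for all genes, of which 43.2% were higher and 32.4% lower. Spike-in scaling left 1 higher and 3 lower with a median of -0.26, and normexp left 10 higher and 0 lower. Against the knockdown 23 were higher and 1 lower in PGCs (median 0.49 beside 0.21, with 44.9% of all genes higher and 31.4% lower). Between knockdown and control 5 rose and 4 fell (median -0.0021 beside -0.07), no more than the 18.2% and 21.9% of all genes.

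In the knockdown, the strongest rises of that list were Nxf3, another X-linked NXF relative, and Thoc1, a core subunit of the THO complex. Nxf3 stood at -3.03, -2.96 and -2.92 on the knockdown arrays, -2.18, -2.99 and -2.15 on the PGC arrays, and -4.62, -4.80 and -4.49 on the control arrays. Control cells lay below all other arrays, and PGCs overlapped the knockdown. Nxf3 rose by 1.66 in the knockdown (SE 0.21, adjusted p = 0.00051) and by 2.20 in PGCs (SE 0.21, adjusted p = 1.8e-05) against control cells, and these were 1.56 (adjusted p = 0.11) and 1.31 (adjusted p = 0.065) with normexp. Thoc1 rose by 1.03 in the knockdown (SE 0.16, adjusted p = 0.0014) and by 1.96 in PGCs (SE 0.16, adjusted p = 6.5e-06), but with spike-in scaling these were 1.04 (adjusted p = 0.40) and 1.001 (adjusted p = 0.11), and the knockdown call was also lost with normexp (1.26, adjusted p = 0.14).

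Falls in the list were smaller. In the knockdown, Thoc7, another THO subunit, fell by 0.64 (adjusted p = 0.00075) and the export helicase gene Ddx39a fell by 0.51 (adjusted p = 0.0013), both calls lost with normexp and with spike-in scaling. In PGCs against control cells, Thoc7 fell by 0.71 (adjusted p = 9.4e-05) and Thoc2 fell by 0.76 (adjusted p = 0.00013), whereas Cetn3, a centrin, rose by 1.35 (adjusted p = 9.7e-07). In PGCs against the knockdown, Cetn3 was higher by 1.71 (adjusted p = 2.9e-07) and Zc3h11a, a zinc finger protein of the export complex, by 1.13 (adjusted p = 3.1e-06), and Thoc2 was lower (log2 difference -0.96, adjusted p = 3.0e-05). The calls of Thoc7 and Thoc2 in PGCs against control cells were lost with normexp, and those of Cetn3 and Zc3h11a with spike-in scaling.

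Of 18 genes of mitotic cohesin, its regulators and CTCF cofactors, 1 rose and 8 fell in the knockdown against control cells (median -0.24 beside -0.07), where 18.2% of all genes rose and 21.9% fell. In PGCs against control cells 11 rose and 4 fell (median 0.35 beside 0.18; all genes 43.2% and 32.4%), and 11 were higher and 2 lower in PGCs than in the knockdown (median 0.48 beside 0.21; all genes 44.9% and 31.4%). With spike-in scaling the counts were 0 and 0, 0 and 4, and 0 and 2. The rise in the knockdown was Nipbl, the cohesin loader (0.43, adjusted p = 0.035), and the falls with the smallest p were those of Prmt7, an arginine methyltransferase (fell by 0.54, adjusted p = 0.0013), and Stag2, a cohesin subunit (fell by 0.57, adjusted p = 0.0018). None of these 3 calls passed with normexp or with spike-in scaling.

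In PGCs, paralogs within the cohesin complex moved in opposite directions on this scale. Stag1 was higher in PGCs than in control cells by 1.47 (SE 0.14, adjusted p = 1.3e-05) and Pds5b by 1.02 (SE 0.11, adjusted p = 3.3e-05), while their paralogs Stag2 (log2 difference -0.56, adjusted p = 0.00059) and Pds5a (log2 difference -0.60, adjusted p = 8.4e-05) were lower, as was the CTCF cofactor gene Zfp143 (log2 difference -0.73, adjusted p = 0.00040). The calls of Stag1 and Pds5b were lost with spike-in scaling (0.51 and 0.06). Against the knockdown, Prmt7 was higher in PGCs by 1.15 (adjusted p = 3.1e-06) and Cdca5, a protector of cohesin, by 0.80 (adjusted p = 2.0e-05), and Yy1, a looping factor, was lower (log2 difference -0.45, adjusted p = 0.0031), as was Pds5a (log2 difference -0.26, adjusted p = 0.011). With spike-in scaling the value of Cdca5 was -0.17 and that of Prmt7 0.18 (adjusted p = 0.81), and with normexp those of Yy1 and Pds5a were -0.21 (adjusted p = 0.45) and -0.29 (adjusted p = 0.21).

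**Figure D4:**
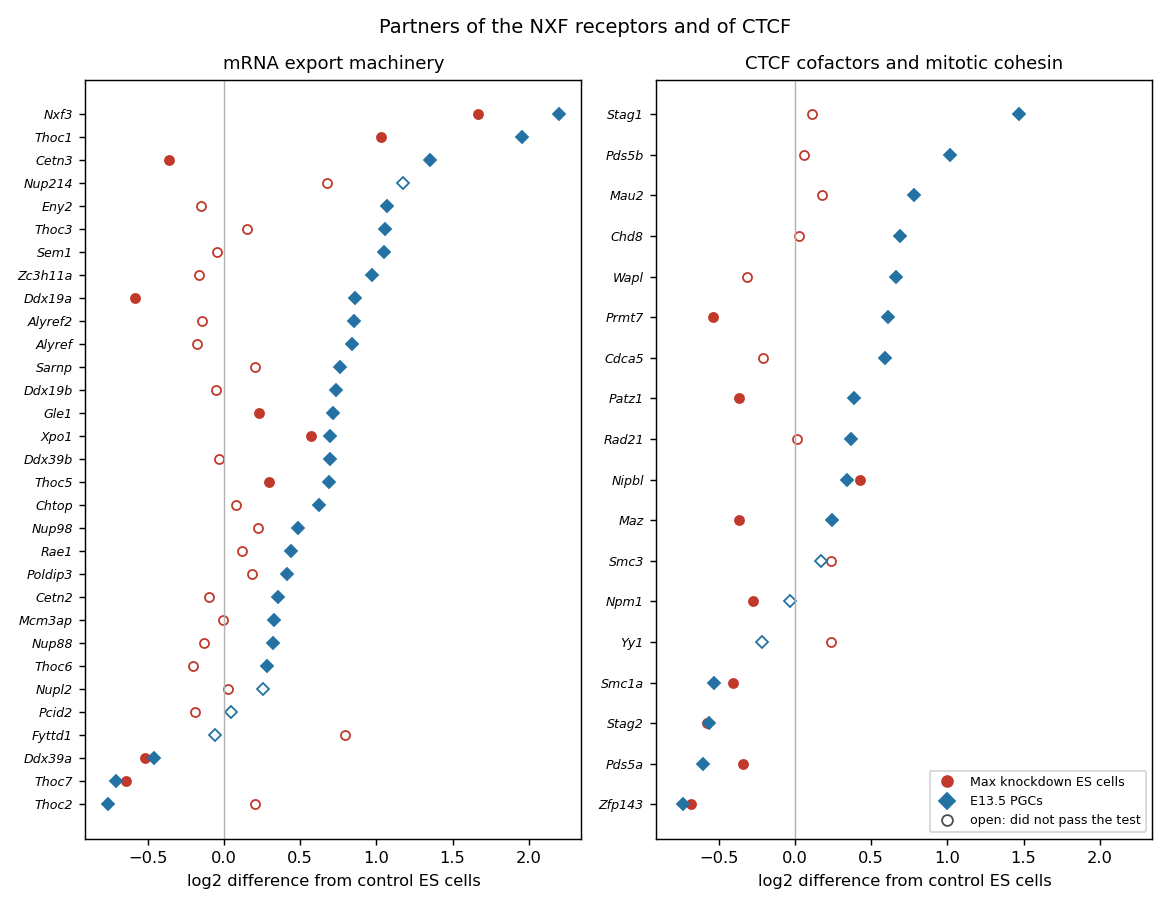
Log2 difference from control ES cells (horizontal axis) for each tested gene of the mRNA export machinery (left) and of CTCF cofactors and mitotic cohesin (right), with circles for Max knockdown ES cells and diamonds for E13.5 PGCs, filled where the test was passed and open where it was not. Most diamonds of the left panel lie above 0, and circles lie on both sides of 0.

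Genes reported to need or bind CTCFL in mouse testis were described next, and this list has 3 members: Gal3st1, a sulfotransferase gene, Prss50, a testis protease gene, and Stra8, the gene that marks entry into meiosis. All 3 passed the test in every comparison: they were higher in the knockdown and lower in PGCs than in control cells. Of all genes, 18.2% were higher in the knockdown than in control cells. In PGCs 32.4% were lower than in control cells and 31.4% lower than in the knockdown. In either direction 40.1% passed in the knockdown and 75.6% and 76.3% in the PGC comparisons. A count of 3 genes says little beside these shares. Against control cells, 1 of the rises in the knockdown passed with normexp and 1 with spike-in scaling, and 2 of the falls in PGCs passed with normexp. Gal3st1 stood at -1.39, -1.28 and -1.34 on the knockdown arrays, -4.51, -4.17 and -4.02 on the PGC arrays, and -2.76, -2.77 and -2.79 on the control arrays. Prss50 stood at 1.63, 1.57 and 1.99 on the knockdown arrays, -2.41, -2.91 and -2.50 on the PGC arrays, and -0.11, 0.16 and 0.67 on the control arrays. Stra8 stood at 6.82, 6.74 and 7.19 on the knockdown arrays, 0.46, 1.27 and 1.23 on the PGC arrays, and 4.90, 5.20 and 5.45 on the control arrays.

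For each of the 3 genes the groups did not overlap, with the knockdown highest and PGCs lowest. The rise in the knockdown was 1.44 for Gal3st1 (SE 0.12, adjusted p = 7.7e-05), 1.49 for Prss50 (SE 0.22, adjusted p = 0.0011) and 1.73 for Stra8 (SE 0.24, adjusted p = 0.00083), all far smaller than the 5.90 of Ctcfl. PGCs lay below control cells in Gal3st1 (log2 difference -1.46, adjusted p = 7.7e-06), Prss50 (-2.85, adjusted p = 4.5e-06) and Stra8 (-4.19, adjusted p = 7.9e-07). Against the knockdown the PGC differences were -2.90, -4.33 and -5.93 in the same order. The list was chosen with results of these arrays known, and whether CTCFL acts on these genes here was not tested.

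**Figure D5:**
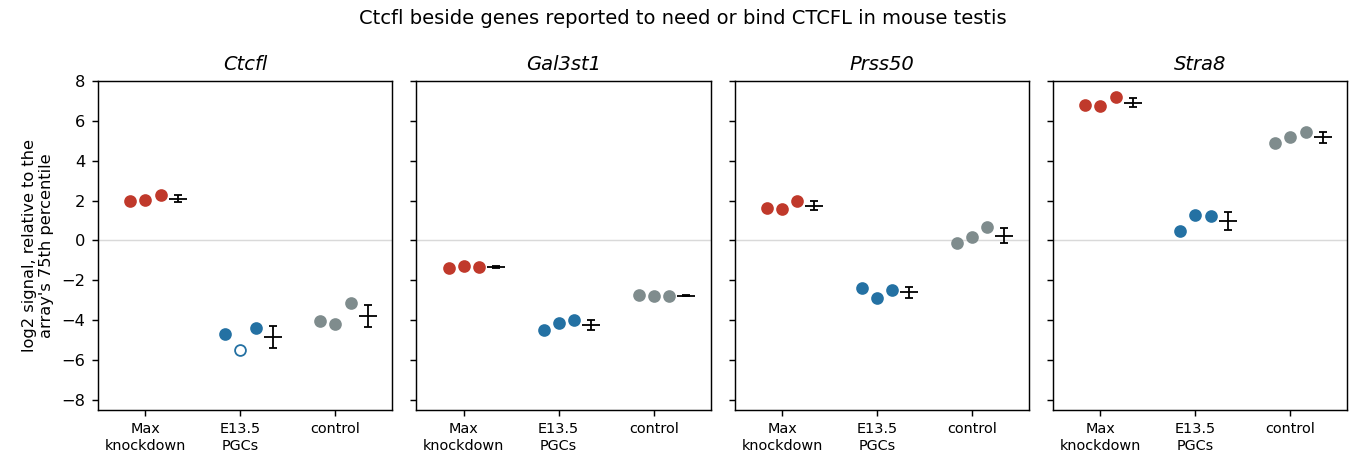
Level of Ctcfl, Gal3st1, Prss50 and Stra8 on every array, as log2 signal relative to the 75th percentile of the array (vertical axis), with Max knockdown ES cells, E13.5 PGCs and control ES cells from left to right; filled points are well above background and black marks give the mean and SD of 3 arrays. In each panel the knockdown is highest and the PGCs lowest.

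The patterns of Ctcfl and Nxf2 were unlike each other over the 9 arrays. After each gene's control mean was subtracted, the root mean square difference between them was 3.48 log2 units, and Nxf2 had rank 4754 of 14443 among the genes ordered by likeness to Ctcfl. The genes most like Nxf2 by this measure were Tdrd9, a helicase of the piRNA pathway, at 0.34, then Mlc1, known from astrocytes, at 0.80, Tex101, a germ cell surface protein, at 1.08, Ctag2l2, an X-linked gene, at 1.09, and the pseudogene Sycp1-ps1 at 1.19. Those most like Ctcfl were Mei1, a gene needed for meiotic chromosome pairing in the mouse, at 1.14, then 4930524B15Rik at 1.35, Olfr118 at 1.43, Olfr376 at 1.46 and Abcc2, a transporter gene, at 1.48. The nearest gene to Ctcfl was thus farther away than 4 of the 5 nearest to Nxf2 were, and 4 of the 5 genes most like Ctcfl were above background on no PGC array.

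Among the 10 like genes, 8 had a promoter window, and CACGTG was found in 2 of them. Tdrd9 held 2, marked in the sequence above, and Ctag2l2 held 1. In level, Tdrd9 exceeded control cells by 5.91 in the knockdown and 4.86 in PGCs, close to the 6.41 and 4.95 of Nxf2, while Mei1 exceeded control cells by 4.06 in the knockdown and lay at -1.22 in PGCs, in the order of Ctcfl. These values chose the genes as alike and are given as a description.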

How the data were processed

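The deposited scanner files hold, per spot, the Cy3 intensity that the authors' Agilent Feature Extraction 10.7.3.1 had already background-subtracted and detrended, per the file headers. The deposited value table holds log2 values that matched 75th-percentile log2 values centred on each probe's median (r of at least 0.99994 per array); whether further steps were applied is unknown. The medians of its columns were -0.02, -0.12, -0.07, 0, 0, 0, 0, 0.34 and 0.39.

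Repeated spots were averaged before taking log2 and subtracting each array's 75th percentile. Control spots and 65 probes with an outlier flag were left out. Of 39364 probes, 26012 were named through RefSeq accessions (GRCm38.p6, used for names because the array header gives mm9), and the brightest probe of a gene was used. All 3 groups entered 1 model over the 9 arrays in limma 3.58.1 (R 4.3.3; lmFit, then eBayes), with 6 residual degrees of freedom before moderation; errors are standard errors of that fit unless marked SD. The code was tested on simulated data. An exact permutation test of 3 against 3 arrays cannot go below 0.1. "At least" folds compare with the dimmest probe well above background, or the dim probe's own signal where higher. Slide 1 held control 1 and 2 and knockdown 1 and 2, slide 2 held control 3 and knockdown 4, and PGCs lay on 2 other slides, so slide and PGCs cannot be told apart.

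Named were the set, Max, Ddx4 and Pou5f1, and all 3 CTCFL-linked genes. From the export and CTCF cofactor lists, the 2 strongest calls per direction and comparison were named. The 5 genes most like Ctcfl and Nxf2 and 3 neighbours on each side were named too. Nxf3 is also given in other comparisons for its family, and Stag2 in PGCs beside its paralog Stag1. From the cell type marker lists only some genes are named, by no fixed rule. The genes and lists were chosen with earlier results of these data known. Alternatives were normexp background correction (on median signals), quantile and spike-in scaling, other filters and probe rules, an intensity trend, 2-group fits, slide or replicate number as a block, the deposited table, and omission of single arrays.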

Additional observations from a re-analysis of the deposited data

How the results depend on the processing

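The rises of Ctcfl and Nxf2 in the knockdown kept their direction under all alternatives run, at 4.53 to 6.22 and 5.25 to 6.58. The 43 named genes outside the set that were followed here leave out those named only from the cell type marker lists. Of their 1696 values under alternatives, 1573 kept direction and side of the threshold, 100 lost the call, 5 gained it and 18 changed sign. The cause was not tested. Precision is limited by 3 arrays per group, and dim probes such as Nxf7, or Ctcfl in PGCs, sit near the background, where normexp and the processed signal differ most.

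The count of family members called in the knockdown, 1 in the fit reported, was 0 with normexp, spike-in scaling, no filter, the 2-group fit, the replicate block and slide 1 alone, and 0 to 1 when single arrays were left out. In PGCs against control cells, Ctcf and Nxt2 kept their calls in all 21 alternatives. Nxf1 and Nxt1 each lost the call in 1, with spike-in scaling. All genes called numbered 8205 in the knockdown against control, 15451 in PGCs against control and 15593 in PGCs against the knockdown; normexp gave 882, 6012 and 7189, and spike-in scaling 1001, 8622 and 8255. Normexp called no gene of the export machinery or of the CTCF cofactors in the knockdown (0 higher, 0 lower in each), 10 higher and 0 lower of the export machinery and 3 higher and 2 lower of the CTCF cofactors in PGCs against control, and 11 and 6 higher, with 0 cofactors lower, in PGCs against the knockdown. Spike-in scaling called, of the export machinery, 1 higher and 0 lower in the knockdown, 1 higher in PGCs against control, and 0 higher and 2 lower in PGCs against the knockdown, and of the cofactors 0 and 0 in the knockdown and 0 higher in both PGC comparisons. Of the export machinery, 3 rose in the knockdown without the filter, with the replicate block and on slide 1 alone, and 3 to 6 with single arrays left out; 2 were lower in PGCs than in the knockdown with quantile normalization and with an intensity trend, and 1 to 2 with single arrays left out. Of the cofactors, 2 rose in the knockdown with quantile normalization and with the trend, 0 without the filter, with the replicate block and on slide 1, and 0 to 1 with single arrays left out; 4 fell with the replicate block, 3 on slide 1 and 5 to 9 with single arrays left out; 4 were lower in PGCs than in the knockdown with quantile normalization and 1 with the replicate block. The CTCFL-linked genes called higher in the knockdown numbered 1 with normexp and 1 with spike-in scaling.

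Values that changed sign were mostly near 0. In the knockdown against control, Ctcf was 0.0038 with quantile normalization and -0.099 to 0.012 with single arrays left out. Nxt1 was 0.062 with quantile normalization, 0.013 with spike-ins, 0.053 with the replicate block, 0.058 on slide 1 and -0.051 to 0.038 with single arrays left out. With normexp Nxf1 was -0.12, Pou5f1 -0.36 and Rae1 -0.26, and Rbm38 was -0.066 with the replicate block. With single arrays left out, Pou5f1 ranged over -0.014 to 0.11, Pmepa1 over -0.019 to 0.27 and Rbm38 over -0.12 to 0.19. In PGCs against control, normexp gave 0.26 for 4930524B15Rik, 0.011 for Abcc2 and 0.064 for Olfr118, spike-ins gave -0.10 for Max and -0.52 for Rae1, and Pou5f1 was -0.18 to 0.0088 with single arrays left out. In PGCs against the knockdown, spike-ins gave -0.11 for Nxf1, -0.17 for Cdca5 and -0.44 for Nxf3, and normexp gave -0.25 for Nxf3 and 0.26 for Pou5f1.

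The labels do not say what a replicate number marks, and control and knockdown share only numbers 1 and 2. Deviations from the group means correlated at 0.37 and 0.39 for these pairs, whose members also share slide 1, at -0.027 and -0.066 for the pairs on slide 1 with different numbers, and at 0.51 for control 3 and knockdown 4 on slide 2. With the replicate block, Nxf1 in the knockdown was 0.24 (adjusted p = 0.138), and Ctcfl and Nxf2 were 6.09 and 6.58. That block joined control 3 to PGC 3 and left knockdown 4 alone under its number, so knockdown 4 did not enter these differences. A fit that paired control 3 with knockdown 4 beside the pairs of like number was not run.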

Other observations

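The 3 nearest genes with a probe on each side of Ctcfl and of Nxf2 differed in how they stood between the groups. Beside Ctcfl, Zbp1, a sensor of Z-form nucleic acid, was lower in the knockdown than in control cells (log2 difference -1.85, SE 0.10, adjusted p = 8.0e-06), while the RNA-binding gene Rbm38 (0.02, adjusted p = 0.93), the mRNA export gene Rae1 (0.12, adjusted p = 0.36) and Pmepa1 (0.15, adjusted p = 0.58) did not pass the test. Spo11 is the gene of the enzyme that starts meiotic recombination. It was above background on 1 of 3 knockdown arrays, all 3 PGC arrays and no control array. In PGCs it was at least 24.4-fold higher than in control cells. This is given with no test because Spo11 entered the test only through the PGC arrays, where it was high. Its mean signal was -5.62 in the knockdown and -7.53 in control cells, mostly not above background, so no fold is given there. Pck1, the remaining neighbour of the 6, was not tested.

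Beside Nxf2 on the X chromosome, Gm15023 was higher than in control cells by 3.38 in the knockdown and by 4.44 in PGCs. In control cells 1 of its 3 arrays was above background. These differences are given with no test because Gm15023 entered the test only through the knockdown and PGC arrays, where it was high. Zmat1, the nearest gene on that side, was higher by 1.04 in the knockdown (adjusted p = 0.028, lost in 10 of 21 alternatives) and by 4.02 in PGCs (adjusted p = 4.5e-06). Armcx3 was lower than in control cells in both the knockdown (log2 difference -1.51, adjusted p = 0.00023) and PGCs (log2 difference -1.62, adjusted p = 2.4e-05), and so was Armcx6 (-0.57, adjusted p = 0.047, and -1.84, adjusted p = 3.3e-05). The calls of Armcx3 were lost with normexp in the knockdown (-0.37) and in PGCs (-1.05), and in the knockdown with spike-in scaling too, and the knockdown call of Armcx6 was lost in 13 of 21 alternatives. Armcx2 (-0.11, adjusted p = 0.60) and Tceal6 (0.41, adjusted p = 0.23) did not pass the test in the knockdown, and both were lower in PGCs than in control cells (-3.09, adjusted p = 2.5e-07, and -0.97, adjusted p = 0.0068, a call that was lost with normexp).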
